A study of Homo sapiens with 9 samples.

Results

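The genes described here encode 39 proteins of the lysosome: 12 glycosidases, 5 sulfatases and acetyltransferases (4 that remove sulfate groups, and HGSNAT, which acetylates glucosamine of heparan sulfate), 8 proteases, 4 lipid hydrolases, 4 cofactors or sterol exporters, 5 membrane proteins and the transcription factor TFEB. They were taken by symbol from a deposited table of 13745 genes in which each of the 39 had 1 row, and all 39 passed the filter on low values, among 12481 genes that did. The lysosome is the acidic compartment in which glycans, lipids and proteins are broken down. Most of its soluble hydrolases are tagged with mannose 6-phosphate in the Golgi and sorted to it, its membrane is lined by glycoproteins such as LAMP1 and LAMP2, and TFEB is a master activator of its genes. Senescent fibroblasts are known for an enlarged lysosomal compartment, and the stain most used to mark them detects the activity of the lysosomal β-galactosidase GLB1.

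RNA came from BJ cells, human primary fibroblasts immortalised with telomerase (hTERT), and was read as polyA RNA-seq in 9 libraries. RASG12V, an oncogenic RAS, was active in 8 of them. In 4 of these a hairpin against the long non-coding RNA lncRNA-OIS1 was present (hairpins 32-2, 32-3, 32-8 and 32-9, here libraries 1 to 4). In 1 more p53 was depleted, and in 1 the bromodomain protein BRD7. The senescent group had RAS with a non-targeting hairpin (2 libraries, hairpins 500 and 507), and the control had hairpin 500 without RAS (1 library). Per the labels every library, the control too, had 14 days of 4-OHT, although the control is elsewhere called untreated. Separate cultures are not mentioned, so the spread behind each p-value may be technical in part. Libraries of a group also differ in hairpin, so this spread includes differences between hairpins and is not that of replicate cultures.

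Each value is a read count per gene that the authors had normalised so that every library held the same set of values, with a floor of 20, a median of 340.1 and a total of 14916466.5. The files do not show sequencing depth, so counting error is not given. Values are not divided by gene length, so levels are compared between libraries and not between genes. BRD7 stood at 94.6 in its knockdown library, against 628.7 and 536.6 in the senescent libraries. Of the fibroblast markers, 8 of 8 were measured. Their summed value was 119066.7 to 199976.6 in the 8 RAS libraries, against 416022.2 in the control. COL1A1, COL1A2, COL3A1, FN1 and PDGFRB were called lower in the senescent libraries, while VIM had 48419.6 to 110360.7 in RAS libraries, against 39745.4 in the control, and S100A4 6829 to 13799.4, against 6416.8 in the control. The 3 of 5 epithelial markers in the table summed to 801.4 to 2105.3 in RAS libraries, against 3686.7 in the control, and the 1 of 5 endothelial markers had 37.4 to 266.9, against 22.2 in the control. Only 3 of 6 macrophage and leukocyte markers were in the table, with sums of 67.2 to 183.9 in RAS libraries, against 216.5 in the control. LncRNA-OIS1 library 4 stood apart, with a correlation of log2 values across genes of 0.914 to 0.942 with the other RAS libraries, which correlated among themselves at 0.94 to 0.996, and the control correlated with the RAS libraries at 0.863 to 0.908. Differences are log2 differences from a limma model of all 9 libraries. Calls needed a p under 0.05 after Benjamini-Hochberg adjustment across the 12481 genes.

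**Figure D1:**
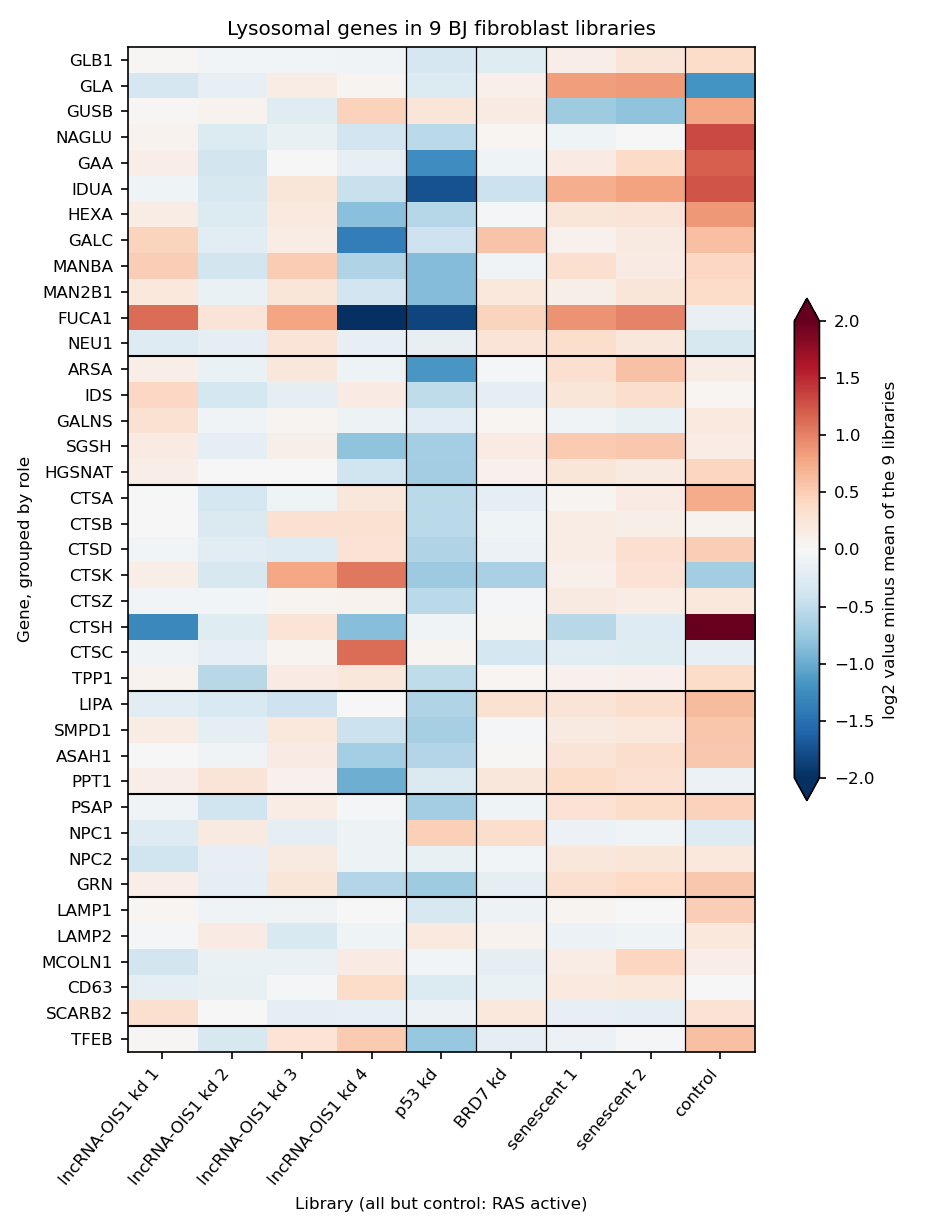
Heat map of the 39 lysosomal genes (rows, grouped by role from glycosidases at the top to TFEB at the bottom) in the 9 libraries (columns). Colour is the log2 value minus the gene's mean over the 9 libraries, capped at −2 and 2, and the p53 knockdown column is the lowest of the 9 for 22 genes while the control column is the highest for 22.

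Senescent libraries were set against the control first, for the response of the 39 genes to RAS. Of the 39, 1 was called higher and 4 were called lower in the senescent libraries. In the background, 7.95% of the 12481 genes were called higher and 7.1% lower (15% in all). The median log2 difference of the 39 was −0.19, against 0.03 over all genes tested, and 26 of the 39 were below 0, against 47.5% of all genes. Both senescent libraries were below the control for these 26 genes (background 42.8%) and above it for 13 (background 48.1%).

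GLA, the α-galactosidase that removes the terminal galactose of globotriaosylceramide, was the gene called higher. It had 850.2 and 862.3 in the senescent libraries, against 207.7 in the control. The log2 difference was 2.04 (SE 0.23, limma adjusted p = 0.00766). GLA was also above the control in the other 6 RAS libraries, at 376.2, 424.1, 526.1 and 496.1 with lncRNA-OIS1 hairpins, 393.2 with p53 knockdown and 509.3 with BRD7 knockdown. All 6 values lay below both senescent libraries, so GLA was highest in the senescent libraries and lowest in the control.

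GUSB, the β-glucuronidase, ran the other way. It had 162 and 151.4 in the senescent libraries, against 450.3 in the control (log2 −1.52, SE 0.29, limma adjusted p = 0.0284). With knockdowns it stood between these, at 267.3, 278.1, 224.3 and 365.1 with lncRNA-OIS1 hairpins, 312.2 with p53 knockdown and 297.1 with BRD7 knockdown. GUSB was the 1 gene of the 39 that lay above both senescent libraries in all 6 knockdown libraries, a pattern met by 14.7% of all genes.

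NAGLU, which removes N-acetylglucosamine from heparan sulfate, had 554.3 and 591.8 in the senescent libraries, against 1464 in the control (log2 −1.35, SE 0.21, limma adjusted p = 0.0171). It had 619.3, 489.4, 532.6 and 449.2 with lncRNA-OIS1 hairpins, 403.2 with p53 knockdown and 601.9 with BRD7 knockdown. No RAS library came near the control.

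CTSH, an aminopeptidase of the cathepsin family, had 33.1 and 40.6 in the senescent libraries, against 381.6 in the control (log2 −3.38, SE 0.64, limma adjusted p = 0.0277). It had 20 (the floor), 41.2, 58.7 and 27 with lncRNA-OIS1 hairpins, 46.1 with p53 knockdown and 49.3 with BRD7 knockdown, so every RAS library was far below the control. PTPRC, a leukocyte marker, stood at the floor in all 8 RAS libraries, against 156.6 in the control. Of the other leukocyte markers, CD14 had 143.9 and 115.2 in the senescent libraries, against 39.9 in the control, and CSF1R was at the floor in these 3 libraries. The part of such cells in the CTSH result was not tested. In bulk RNA, fewer cells that express a gene and less RNA per cell cannot be told apart.

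LAMP1, the abundant glycoprotein of the lysosomal membrane, had 4156.9 and 3977.1 in the senescent libraries, against 5596.3 in the control (log2 −0.46, SE 0.10, limma adjusted p = 0.041). Its call was lost when genes were filtered at a mean of 80, without a variance trend and with robust moderation. GAA, the enzyme that degrades glycogen in the lysosome, had 742 and 862 in the senescent libraries, against 1523.7 in the control, and missed the threshold (log2 −0.93, adjusted p = 0.0517). It passed with a pseudocount of 50 (adjusted p = 0.048), with the filter at a mean of 80 (0.0436), with median-of-ratios scaling (0.047) and with robust moderation (0.047). GLB1 had 1172.6 and 1281.2 in the senescent libraries, against 1389.8 in the control. Its RNA was thus slightly lower, not higher, in the senescent libraries, and the log2 difference of −0.18 did not pass (SE 0.11, adjusted p = 0.3). CTSD, an aspartic protease, had 1472.2 and 1676.6 in the senescent libraries, against 1869.9 in the control (adjusted p = 0.53). TFEB had 79.4 and 83.9 in the senescent libraries, against 131 in the control (log2 −0.68, adjusted p = 0.243).

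In the other 30 genes the log2 differences ran in both directions without a call. The largest above 0 was that of FUCA1, a fucosidase, which had 585 and 623.2 in the senescent libraries, against 284.3 in the control (log2 1.09, SE 1.48, adjusted p = 0.658). The SE is wide, and FUCA1 ran between 55.8 and 680.2 in the 4 lncRNA-OIS1 libraries. PPT1, which removes palmitate from proteins, had 3242 and 3082 in the senescent libraries, against 2302.7 in the control (adjusted p = 0.588). GRN had 5657.9 and 5987.8 in the senescent libraries, against 6596.3 in the control, and MCOLN1 222 and 268.2 in the senescent libraries, against 219 in the control. SGSH, the heparan N-sulfatase, had 1056.9 and 1061.7 in the senescent libraries, against 807.9 in the control (adjusted p = 0.557). The control had no replicate. The 5 calls fell to 3 without lncRNA-OIS1 library 1 and to 2, GLA and NAGLU, without library 2. Of all genes 1295 and 1136 were then called, against 1878 in the fit with all 9 libraries. Without library 4 the lysosomal calls numbered 7, with 3704 of all genes called. With either senescent library left out, that group held 1 library, so only the effect size is given here. The median log2 difference of the lysosomal genes was then −0.157 or −0.245.

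**Figure D2:**
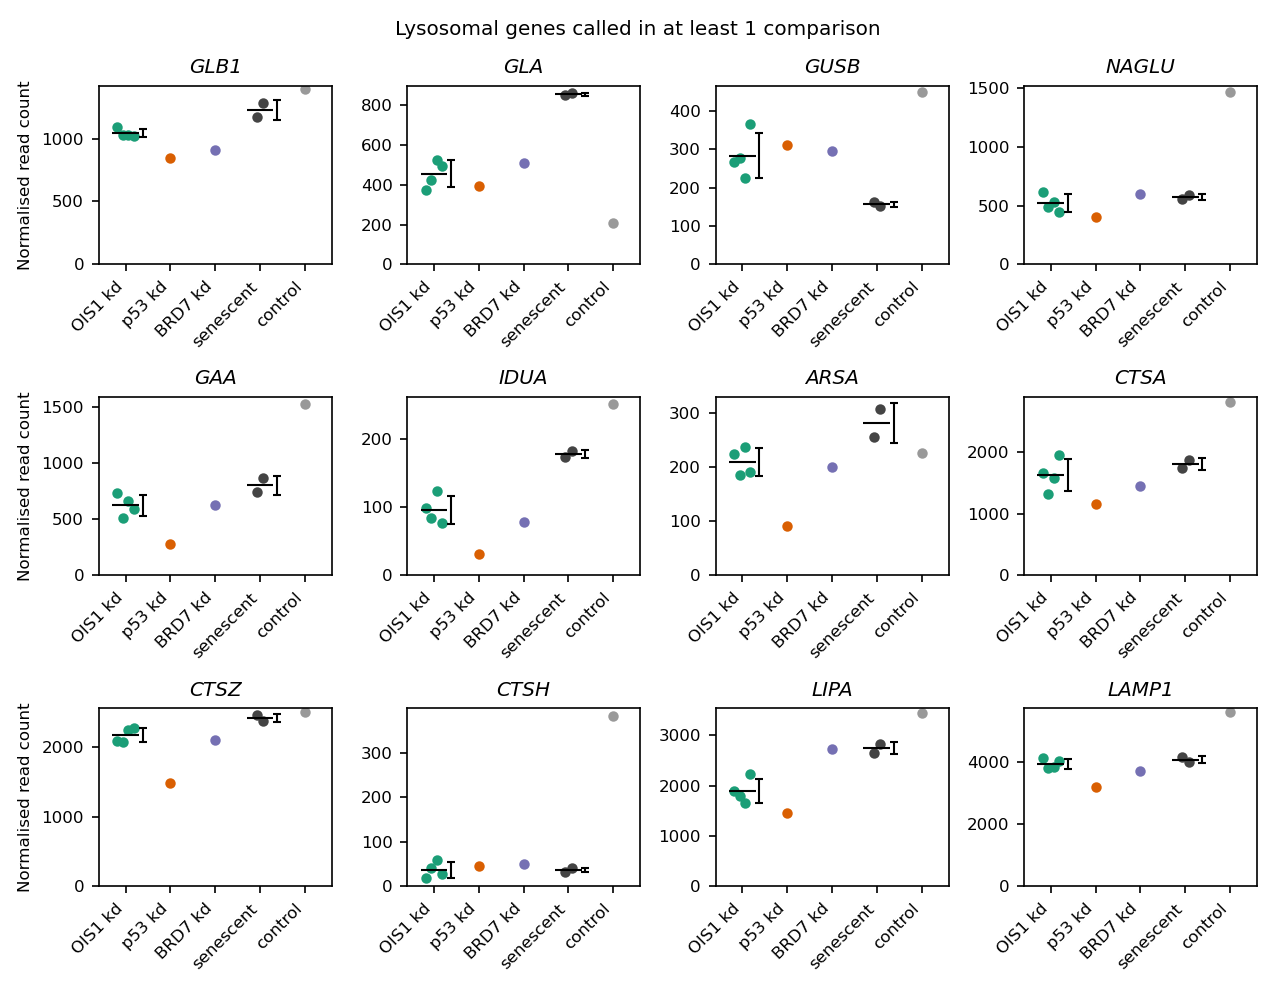
Normalised read counts (vertical axes, linear, from 0) of the 12 lysosomal genes called in at least 1 comparison, by group. Each dot is 1 library, horizontal lines are means and vertical bars SDs of the groups with more than 1 library (n = 4 for lncRNA-OIS1 knockdown, n = 2 for senescent). GLA is lowest in the control at 207.7, while the control is the highest library for GLB1, GUSB, NAGLU, GAA, IDUA, CTSA, CTSZ, CTSH, LIPA and LAMP1.

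The average of the 4 RAS groups, each weighted equally, was then set against the control, since the single control library is the limit of every such contrast and this one uses all 8 RAS libraries. It shares the control with the comparison of senescent libraries and is not independent of it. Here 1 of the 39 genes was called higher and 8 were called lower, where 6.94% of all genes were called higher and 6.96% lower (13.9% in all). The median log2 difference was −0.48, against 0.06 over all genes. All 8 RAS libraries were below the control for 22 of the 39 genes (background 23.1%) and above it for GLA and NEU1, a sialidase (background 25.3%).

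The 8 lower genes belong to several arms of the lysosome. NAGLU (log2 −1.50, adjusted p = 0.00881), GAA (−1.49, adjusted p = 0.0127) and IDUA (−1.65, adjusted p = 0.0203), the iduronidase that acts on heparan and dermatan sulfate, fell most among glycosidases in limma. CTSH fell by 3.22 (adjusted p = 0.0228). LAMP1 fell by 0.59 (SE 0.09, adjusted p = 0.0172), with 4117.7, 3787.1, 3811.1 and 4027.7 in the lncRNA-OIS1 libraries, 3186 with p53 knockdown, 3711.2 with BRD7 knockdown and 4156.9 and 3977.1 in the senescent libraries, against 5596.3 in the control. GLB1 fell by 0.48 (SE 0.10, adjusted p = 0.0308). Its values were 1094.2, 1029.6, 1028.7 and 1022.8 with lncRNA-OIS1 hairpins, 848.9 with p53 knockdown, 906.2 with BRD7 knockdown, 1172.6 and 1281.2 in the senescent libraries and 1389.8 in the control. The control was thus the highest of the 9 libraries for GLB1, and the p53 knockdown library the lowest.

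CTSA, the protective protein that stabilises GLB1 and NEU1, had 1658.2, 1314.7, 1572 and 1945.1 with lncRNA-OIS1 hairpins, 1149.3 with p53 knockdown, 1452.7 with BRD7 knockdown and 1728.7 and 1866.9 in the senescent libraries, against 2799.9 in the control. No RAS library reached the control (log2 −0.92, SE 0.20, limma adjusted p = 0.039). LIPA, the acid lipase that frees cholesterol from its esters, had 1886, 1798.2, 1654.1 and 2228.2 with lncRNA-OIS1 hairpins, 1460.1 with p53 knockdown, 2725.1 with BRD7 knockdown and 2654 and 2829.7 in the senescent libraries, against 3438 in the control (log2 −0.69, adjusted p = 0.0471). GLA was the gene called higher (log2 1.34, SE 0.20, adjusted p = 0.0152).

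Without lncRNA-OIS1 library 4 the calls were 16 (1 higher and 15 lower), which included all 9. Of all genes 3468 were then called, against 1735 in the fit with all libraries, so both counts rose. With either senescent library left out, that group held 1 library, so only the effect size is given here. The median log2 difference of the lysosomal genes was then −0.472 or −0.497. LIPA was lost without the filter on low values and without a variance trend. Without the p53 knockdown library 6 of the 9 remained, with 1573 of all genes called. GLB1 (log2 −0.40, limma adjusted p = 0.0514), CTSA (adjusted p = 0.0612) and LIPA (adjusted p = 0.104) then no longer passed.

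Promoter windows were matched for 7 of these 8 lower genes, all but NAGLU, and 3 of the 7 hold CACGTG, the E-box at the core of the element through which TFEB binds lysosomal promoters, and they are shown with that of GLA, the called gene that was higher. Each runs from 250 bases before the gene start to 50 after it, 5′ to 3′ on the gene's strand, from RefSeq on GRCh38.p14, with each CACGTG in capitals. The locations are chr13:113296989-113297288, plus strand (LAMP1), chr17:80101331-80101630, plus strand (GAA), chr20:45891085-45891384, plus strand (CTSA) and chrX:101407876-101408175, minus strand (GLA).
LAMP1: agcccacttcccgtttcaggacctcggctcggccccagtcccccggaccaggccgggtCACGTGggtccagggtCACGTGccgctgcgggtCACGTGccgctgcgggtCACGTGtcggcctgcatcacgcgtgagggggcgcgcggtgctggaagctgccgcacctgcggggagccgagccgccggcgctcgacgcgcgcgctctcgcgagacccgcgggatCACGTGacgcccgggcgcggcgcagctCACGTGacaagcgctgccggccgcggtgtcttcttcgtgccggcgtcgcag
GAA: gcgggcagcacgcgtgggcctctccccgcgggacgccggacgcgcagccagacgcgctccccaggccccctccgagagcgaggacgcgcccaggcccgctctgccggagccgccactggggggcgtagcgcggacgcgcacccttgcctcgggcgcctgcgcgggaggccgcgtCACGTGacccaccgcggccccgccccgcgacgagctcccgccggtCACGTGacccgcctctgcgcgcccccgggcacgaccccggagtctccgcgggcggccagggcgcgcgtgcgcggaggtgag
CTSA: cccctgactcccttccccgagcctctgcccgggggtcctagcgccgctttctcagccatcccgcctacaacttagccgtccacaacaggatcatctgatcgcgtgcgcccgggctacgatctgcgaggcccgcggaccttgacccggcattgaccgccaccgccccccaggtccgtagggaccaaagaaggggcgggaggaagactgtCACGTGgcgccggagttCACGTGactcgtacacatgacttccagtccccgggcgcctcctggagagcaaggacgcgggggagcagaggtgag
GLA: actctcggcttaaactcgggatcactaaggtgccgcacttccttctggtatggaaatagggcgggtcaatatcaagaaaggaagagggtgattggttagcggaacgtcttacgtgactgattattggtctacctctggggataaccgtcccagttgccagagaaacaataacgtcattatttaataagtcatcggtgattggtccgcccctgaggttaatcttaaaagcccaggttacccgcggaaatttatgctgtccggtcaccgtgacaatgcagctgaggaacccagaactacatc
The LAMP1 window holds 6 copies of the hexamer, the GAA and CTSA windows 2 each, and the GLA window 0. RefSeq promoters were matched by symbol for 28 of the 39 genes, over every start listed for a gene. CACGTG, which reads the same on both strands, was found for 8 of the 28 (28.6%), against 8.77% of 27305 genes. These 27305 are all genes with a listed promoter, and were not limited to the 12481 tested here. The 7-letter form TCACGTG, searched on both strands and always overlapping a CACGTG, was found for 7 (25%), against 4.49% of the 27305. These were CTSA, CTSD, GAA, GALNS, LAMP1, MCOLN1 and NEU1, and CD63 held the 6-letter form alone. The matches describe the letters of these windows and not binding in these cells. Called genes were of either kind: GLA, GUSB, CTSH, CTSZ, GLB1, IDUA and LIPA were matched and held no CACGTG. Of the genes that held it, CTSD, GALNS, MCOLN1, NEU1 and CD63 were called in no comparison of the fit with all 9 libraries.

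Knockdown of p53 in RAS cells was compared with the senescent libraries, and gave the lowest lysosomal levels of the series. In the p53 knockdown library 33 of the 39 genes were below both senescent libraries (background 45%), and 6 were above both (background 43.4%). For 22 of the 39 it was the lowest of all 9 libraries, which held for 12.1% of all genes. The median log2 difference of the 39 was −0.69, against 0 over all genes. The 39 genes summed to 0.42% of the library's total, against 0.626% and 0.64% in the senescent libraries, and 0.666% in the control. By limma 4 of the 39 were called lower and 0 higher, where 1.57% of all genes were called lower and 2.27% higher (3.84% in either direction), and 19 of the 39 had an unadjusted p under 0.05, against 26.3% of all genes.

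IDUA had 31.4, near the floor of 20, in the p53 knockdown library, against 173.7 and 182.6 in the senescent libraries (log2 −2.50, SE 0.31, limma adjusted p = 0.0467). It was also below both senescent libraries with each lncRNA-OIS1 hairpin, at 98.8, 84.4, 123.6 and 76.7, and with BRD7 knockdown, at 77.9, and it stood at 250.4 in the control. ARSA, the arylsulfatase that degrades sulfatide, had 91.3 in the p53 knockdown library, against 255.4 and 307.4 in the senescent libraries (log2 −1.62, SE 0.23, adjusted p = 0.0467). Its values elsewhere were 223.9, 185.1, 237.4 and 190.7 with lncRNA-OIS1 hairpins, 201 with BRD7 knockdown and 226.3 in the control. The p53 knockdown library was the lowest, but the other knockdown libraries also lay below both senescent libraries.

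GAA had 280.4 in the p53 knockdown library, against 742 and 862 in the senescent libraries (log2 −1.51, SE 0.23, adjusted p = 0.0467). The next lowest library for GAA was lncRNA-OIS1 library 2 at 512.7, and the other lncRNA-OIS1 libraries had 730, 657.7 and 588.6 and the BRD7 knockdown library 623.3. CTSZ, a carboxypeptidase of the cathepsin family, had 1488.6 in the p53 knockdown library, against 2456.2 and 2381.7 in the senescent libraries (log2 −0.70, SE 0.10, adjusted p = 0.0467). CTSZ had 2085.6, 2079.3, 2242.3 and 2274.9 with lncRNA-OIS1 hairpins, 2104.4 with BRD7 knockdown and 2511 in the control. These other knockdown libraries were thus also below both senescent libraries, by less than the p53 knockdown library.

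Other genes were low in this library without a call. FUCA1 had 87.9 with p53 knockdown, against 585 and 623.2 in the senescent libraries (log2 −2.78, SE 1.48, adjusted p = 0.297). GLA had 393.2 with p53 knockdown, against 850.2 and 862.3 in the senescent libraries (adjusted p = 0.0568). LIPA had 1460.1 with p53 knockdown, against 2654 and 2829.7 in the senescent libraries (adjusted p = 0.058). GLB1, at 848.9 with p53 knockdown, against 1172.6 and 1281.2 in the senescent libraries, also just missed the threshold (adjusted p = 0.0584). Among the sphingolipid cofactors, PSAP, the precursor of the saposins, had 5222.9 with p53 knockdown, against 10367.6 and 10883.3 in the senescent libraries (adjusted p = 0.0677). GRN, progranulin, had 2773.6 with p53 knockdown, against 5657.9 and 5987.8 in the senescent libraries (adjusted p = 0.125). All of these lay below both senescent libraries, as did PPT1, at 2046.6, and MCOLN1, at 191.3, with p53 knockdown. SGSH had 457.9 with p53 knockdown, against 1056.9 and 1061.7 in the senescent libraries (adjusted p = 0.139). CTSD had 875.4 with p53 knockdown, against 1472.2 and 1676.6 in the senescent libraries (adjusted p = 0.106). TFEB itself had 50.6 with p53 knockdown, against 79.4 and 83.9 in the senescent libraries (adjusted p = 0.287).

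The 6 genes above both senescent libraries were GUSB, CTSH, CTSC, NPC1, LAMP2 and SCARB2, 0 of them called. CTSC had 1930.3 with p53 knockdown, against 1581.6 and 1569.4 in the senescent libraries, and 1657 in the control. NPC1, the membrane protein that exports cholesterol from the lysosome, had 1967.7 with p53 knockdown, against 1298.8 and 1347.6 in the senescent libraries (adjusted p = 0.136). NPC2, its soluble partner, had 1017.8 with p53 knockdown, against 1317.8 and 1336.8 in the senescent libraries (adjusted p = 0.351). Within the membrane class the library was closest to the senescent level: the median log2 difference was −0.35 for the 5 membrane proteins, beside −0.93 for the 12 glycosidases, −0.91 for the 5 sulfatases and acetyltransferases, −0.87 for the 4 lipid hydrolases, −0.70 for the 4 cofactors and sterol exporters and −0.66 for the 8 proteases. These classes were not tested against each other.

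With 1 library for p53 knockdown, its variance is taken from the replicated groups, and the 4 calls share an adjusted p just under the threshold. They fell to 0 without lncRNA-OIS1 library 1, 2 or 3 and with an untrended variance. Of all genes, 479 were called in the fit with all 9 libraries. That count was 0 without lncRNA-OIS1 library 1, 2 or 3, and 2 with an untrended variance. Without library 4 the lysosomal calls numbered 17 (1 higher and 16 lower), and 2146 of all genes were called. The lysosomal counts thus moved with those of all genes. With either senescent library left out, that group held 1 library, so only the effect size is given here. The median log2 difference of the lysosomal genes was then −0.7 or −0.69.

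**Figure D3:**
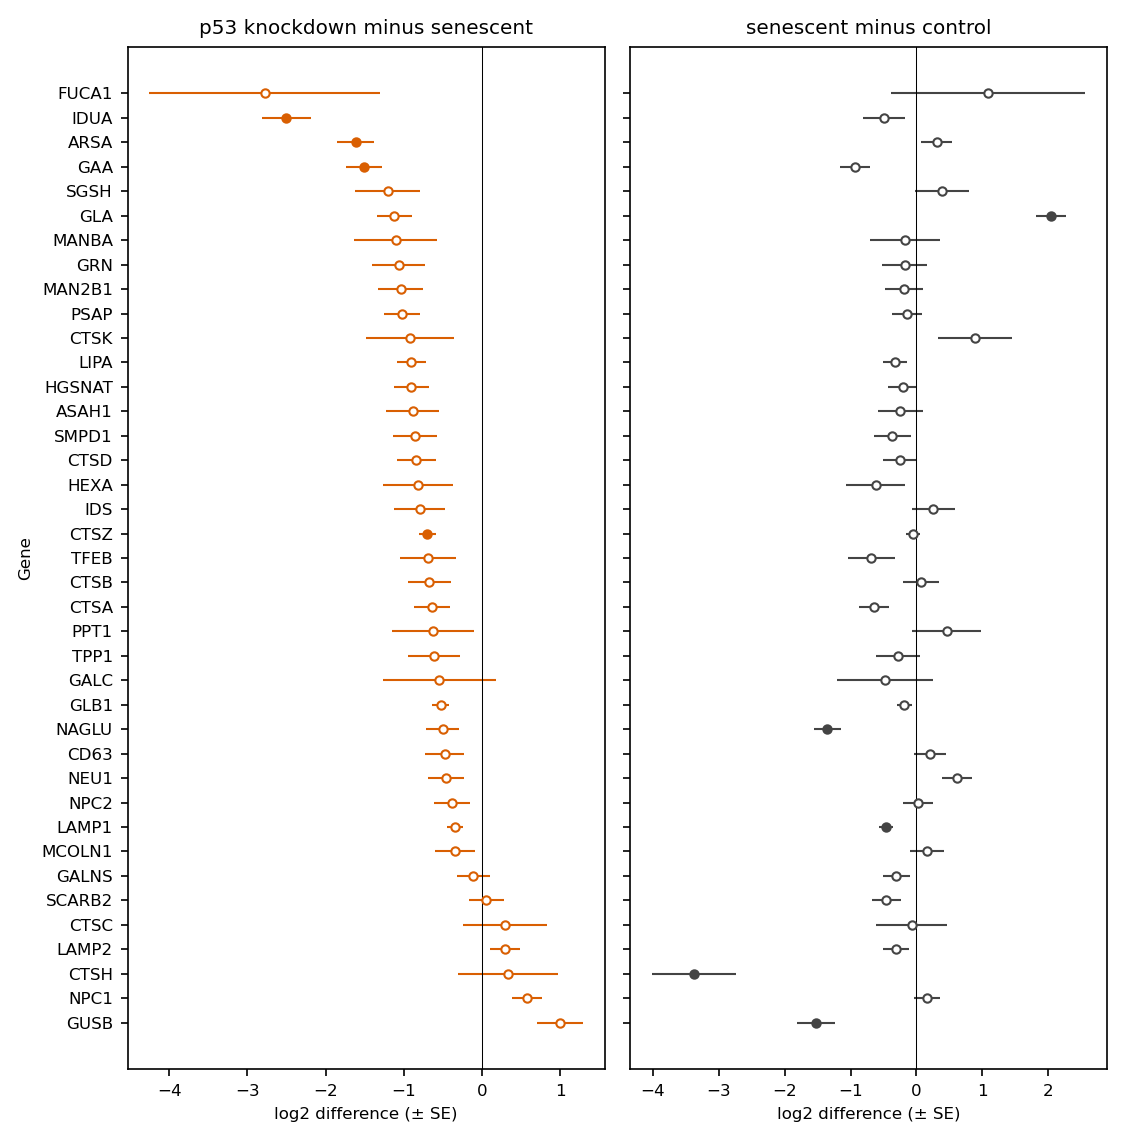
Log2 differences (horizontal axes) with their SE for the 39 genes, p53 knockdown minus senescent on the left and senescent minus control on the right, in the order of the left panel. Filled points passed an adjusted p under 0.05, and 33 of 39 points lie left of 0 in the left panel and 26 in the right.

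LncRNA-OIS1 knockdown was compared with the senescent libraries in 4 libraries against 2. The 39 genes had a median log2 difference of −0.26, against −0.02 over all genes, and 31 were below 0, against 52.4% of all genes. All 4 hairpins lay below both senescent libraries for 15 of the 39 genes (background 21.5%), and above both for GUSB and CTSC (background 17.1%). By limma 0 of the 39 were called, as were 0% of all genes, and 7 of the 39 had an unadjusted p under 0.05, against 22.5% of all genes.

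The 15 genes came from every enzyme class. GLA averaged 456 ± 68.1 with lncRNA-OIS1 hairpins and 856 ± 8.56 in the senescent libraries (SD, n = 4 and n = 2, log2 −0.92, SE 0.16, limma adjusted p = 0.0806). IDUA averaged 95.9 ± 20.6 with lncRNA-OIS1 hairpins and 178 ± 6.29 in the senescent libraries (log2 −0.92, adjusted p = 0.0993, limma), and LIPA 1892 ± 244 with the hairpins and 2742 ± 124 in the senescent libraries (log2 −0.54, adjusted p = 0.0998, limma). GLB1 averaged 1044 ± 33.7 with lncRNA-OIS1 hairpins and 1227 ± 76.8 in the senescent libraries (log2 −0.23, SE 0.08, adjusted p = 0.163, limma). The remainder were GAA, HEXA, ARSA, SGSH, HGSNAT, CTSZ, ASAH1, PPT1, PSAP, NPC2 and GRN. GUSB averaged 284 ± 59 with lncRNA-OIS1 hairpins and 157 ± 7.5 in the senescent libraries (log2 0.83, SE 0.21, adjusted p = 0.102, limma).

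The hairpins were unequal. The median log2 distance of the 39 genes from the senescent mean was −0.13, −0.40, −0.11 and −0.33 in libraries 1 to 4, and the number of genes below both senescent libraries was 25 in library 1 (background 44.9%), 32 in library 2 (45.5%), 26 in library 3 (45%) and 24 in library 4 (46.5%). Above both were 11 genes in library 1 (background 40.6%), 6 in library 2 (40.7%), 11 in library 3 (39%) and 9 in library 4 (43.5%). Library 4 was the lowest of the 9 for 6 genes (HEXA, GALC, FUCA1, SGSH, ASAH1 and PPT1), or 15.4%, near the 16.2% of all genes. It was the highest for 3 (CTSK, CTSC and CD63), or 7.69%, under the 17.3% of all genes. Extreme values in library 4 were thus no more common among the 39 than among all genes.

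FUCA1 had 680.2, 377.7, 544.8 and 55.8 in lncRNA-OIS1 libraries 1 to 4, against 585 and 623.2 in the senescent libraries, so library 4 alone was near the 87.9 of p53 knockdown. CTSC, a dipeptidyl peptidase that activates serine proteases, had 1764, 1649.2, 1937 and 4030.9 with lncRNA-OIS1 hairpins, against 1581.6 and 1569.4 in the senescent libraries. CTSK, the collagen-degrading cathepsin, had 3823, 2791, 5953.8 and 7253.4 with lncRNA-OIS1 hairpins, against 3744.7 and 4260.1 in the senescent libraries. CTSC was thus above both senescent libraries with every hairpin, while CTSK lay on both sides. PPT1 had 2760.1, 3004.9, 2645.8 and 1273.1 with lncRNA-OIS1 hairpins, against 3242 and 3082 in the senescent libraries, with library 4 far below the rest. SGSH had 824.1, 649, 797.1 and 418.8 with lncRNA-OIS1 hairpins, against 1056.9 and 1061.7 in the senescent libraries, with all hairpins below and library 4 the lowest. GRN had 4952, 4004.6, 5374.4 and 3025.4 with lncRNA-OIS1 hairpins, against 5657.9 and 5987.8 in the senescent libraries, again with every hairpin below. MCOLN1, the calcium channel of the lysosomal membrane, had 155.4, 181.8, 181.9 and 222.9 with lncRNA-OIS1 hairpins, against 222 and 268.2 in the senescent libraries (log2 −0.41, adjusted p = 0.26). CTSD had 1292.4, 1150, 1120 and 1636.8 with lncRNA-OIS1 hairpins, against 1472.2 and 1676.6 in the senescent libraries, with 3 hairpins below both. TFEB had 87, 69, 103.7 and 123.7 with lncRNA-OIS1 hairpins, against 79.4 and 83.9 in the senescent libraries, on either side of the senescent libraries. Without library 4, 0 of the 39 genes were still called, although 164 genes were called in all.

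BRD7 knockdown was compared with the senescent libraries in 1 library. It was below both senescent libraries for 28 of the 39 genes (background 45.4%) and above both for 8 (background 40.1%), with a median log2 difference of −0.23, against −0.02 over all genes. By limma 0 of the 39 were called, 0.00801% of all genes were, and 4 of the 39 had an unadjusted p under 0.05, against 13.9% of all genes. IDUA had 77.9 with BRD7 knockdown, against 173.7 and 182.6 in the senescent libraries (log2 −1.19, SE 0.31, adjusted p = 0.209). GLA had 509.3 with BRD7 knockdown, against 850.2 and 862.3 in the senescent libraries (adjusted p = 0.253). GLB1 had 906.2 with BRD7 knockdown, against 1172.6 and 1281.2 in the senescent libraries (adjusted p = 0.204). All 3 were below both senescent libraries, as was CTSK, with 2212.3 with BRD7 knockdown, against 3744.7 and 4260.1 in the senescent libraries (adjusted p = 0.58). TFEB had 75, CTSD 1225.9 and GRN 3990.8 with BRD7 knockdown, each below both senescent libraries. FUCA1 had 428.8, SGSH 818.9, CTSC 1460.4, PPT1 2944.2 and MCOLN1 176.9 with BRD7 knockdown, also below both. LIPA, at 2725.1, lay between the senescent libraries, and SCARB2, the receptor that carries glucocerebrosidase to the lysosome, at 5194.9, lay above their 4030.9 and 3949.

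The 3 knockdown comparisons share the 2 senescent libraries and so are not independent. All 6 knockdown libraries lay below both senescent libraries for 14 of the 39 genes (background 18.6%). These were GLB1, GLA, GAA, IDUA, HEXA, ARSA, SGSH, HGSNAT, CTSZ, ASAH1, PPT1, PSAP, NPC2 and GRN.

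**Figure D4:**
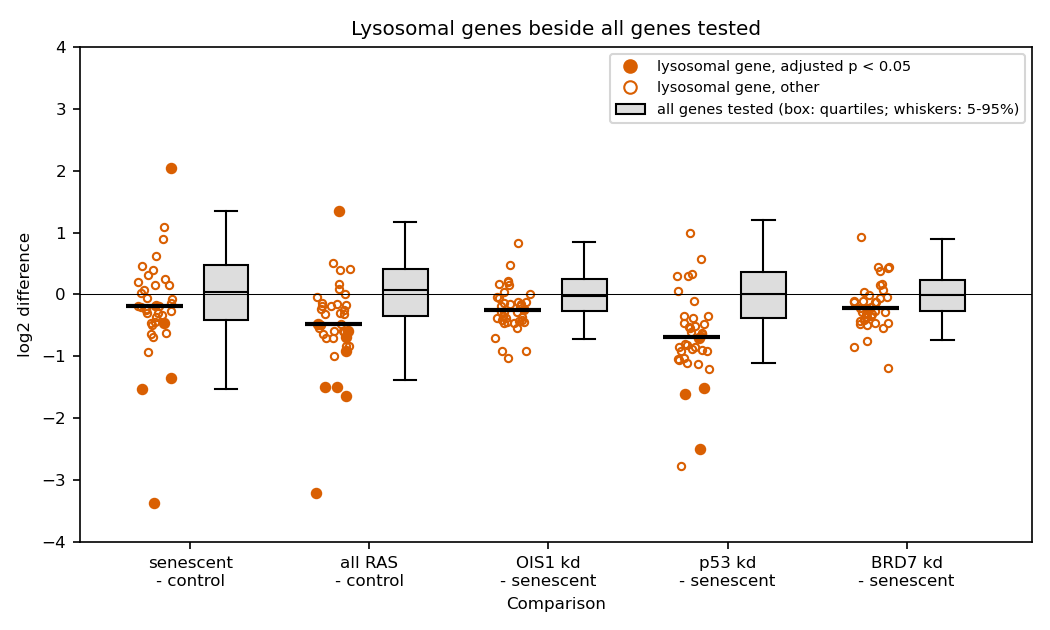
Log2 differences of the 39 lysosomal genes (orange, filled where the adjusted p was under 0.05, black bar at their median) beside those of all 12481 genes tested (grey boxes of quartiles with whiskers at the 5th and 95th percentiles) in 5 comparisons. The orange medians are −0.19, −0.48, −0.26, −0.69 and −0.23 from left to right, each below that of all genes.

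The 39 genes also differed in how much they moved over the series. The ratio of the highest to the lowest of the 9 libraries was smallest for SCARB2 (1.42), LAMP2 (1.42), GALNS (1.45), NPC2 (1.56) and CD63 (1.57), a list with 3 membrane proteins. It was largest for CTSH (19.1, against a library at the floor), FUCA1 (12.2), IDUA (7.97, against a library near the floor), GAA (5.43) and GLA (4.15). GLB1 ranked 7 from the steadiest, at 1.64. Grouped by substrate, a grouping made after the values were seen, 6 of the 6 enzymes of heparan sulfate breakdown (IDUA, IDS, SGSH, HGSNAT, NAGLU and GUSB) had log2 differences below 0 for the RAS groups against the control (45.4% of all genes), with a median of −0.69 and 2 called lower (background 6.96%). SGSH was at 0.032 without the p53 knockdown library. Below 0 were 4 of the 6 for senescent against control (47.5% of all genes), and, against senescent, 5 with lncRNA-OIS1 (52.4%), 5 with p53 (49.8%) and 4 with BRD7 knockdown (51.7%). The proteins of sphingolipid breakdown were 9 (GLB1, HEXA, GLA, GALC, ARSA, NEU1, PSAP, SMPD1 and ASAH1). Below 0 were 9 with p53 knockdown (49.8% of all genes), 9 with lncRNA-OIS1 knockdown (52.4%) and 8 with BRD7 knockdown (51.7%). Their medians were −0.86, −0.41 and −0.28 in that order, and 1, 0 and 0 were called lower (background 1.57%, 0% and 0.00801%). Against the control, 6 of the 9 were below 0 in the senescent libraries (47.5% of all genes) and 7 over the RAS groups (45.4%). GLA was called higher in both (background 7.95% and 6.94%) and GLB1 lower over the RAS groups (background 6.96%).

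Other lysosome-related lists were counted in the same fit. Their counts stand beside the same shares of all genes: 7.95% called higher and 7.1% lower for senescent against control, 2.27% higher and 1.57% lower with p53 knockdown, and 47.5% and 49.8% below 0 in these comparisons. Among 30 other lysosomal enzymes 0 were called higher and 2 lower in the senescent libraries against the control, and 1 and 2 with p53 knockdown against senescent. The share called in the senescent libraries was thus under that of all genes. DNASE2, the acid endonuclease, had 320 and 309.7 in the senescent libraries, against 712.1 in the control (log2 −1.18, adjusted p = 0.0343, limma). MAN2B2, an α-mannosidase, had 868.3 and 846.8 in the senescent libraries, against 1292 in the control (log2 −0.59, adjusted p = 0.0394), and 418.1 with p53 knockdown (log2 −1.04 against senescent, adjusted p = 0.0467). CTSF, a cysteine cathepsin, was lower over the RAS groups against the control (log2 −1.72, adjusted p = 0.0176). GGH, which trims folate polyglutamates, rose with p53 knockdown to 1146.9, against 372.6 and 403.8 in the senescent libraries (log2 1.56, adjusted p = 0.0481). SIAE, a sialic acid esterase, had 169.4 with p53 knockdown, against 403.8 and 407.1 in the senescent libraries (log2 −1.26, adjusted p = 0.0492). The median log2 difference of the 30 with p53 knockdown was −0.59, against 0 over all genes, with 26 below 0 (49.8% of all genes).

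Among 26 other membrane and transport proteins, 3 were called higher and 2 lower in the senescent libraries against the control, where 15% of all genes were called. MFSD1, a lysosomal transporter, had 5971.7 and 5963.2 in the senescent libraries, against 1242.4 in the control (log2 2.26, adjusted p = 0.013, limma), and 1638.8 with p53 knockdown (log2 −1.86 against senescent, adjusted p = 0.0467). Like GLA it was highest in the senescent libraries. SIDT2 was lower with p53 knockdown against senescent (log2 −1.62, adjusted p = 0.0467). TMEM55A, a phosphoinositide phosphatase, rose (log2 1.20, adjusted p = 0.00981), and LAPTM4A (−0.82, adjusted p = 0.0199) and LITAF (−1.53, adjusted p = 0.0209) fell in the senescent libraries.

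The V-ATPase is the proton pump that acidifies the lysosome. Of 17 subunits tested, 13 were above 0 and 4 below in the senescent libraries against the control (47.5% of all genes below), with a median log2 difference of 0.52 and 2 called higher (background 7.95%). ATP6V1F had 1566.2 and 1719.9 in the senescent libraries, against 766.2 in the control (log2 1.10, adjusted p = 0.00937, limma), and ATP6V1D had 2325.2 and 2447.8 in the senescent libraries, against 1224.3 in the control (log2 0.96, adjusted p = 0.0282). In each of the 3 knockdown comparisons 16 of the 17 were below 0, with medians of −0.45 (lncRNA-OIS1), −0.71 (p53) and −0.52 (BRD7), where 52.4%, 49.8% and 51.7% of all genes were below 0 in that order. The 3 comparisons share the senescent libraries. ATP6V0D1 (−0.86, adjusted p = 0.0467), ATP6V1F (−0.86, adjusted p = 0.0467) and ATP6V0E1 (−1.17, adjusted p = 0.0479) fell with p53 knockdown, and 0 subunits were called with the other knockdowns. The lists were not tested against each other.

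Sorting and control genes were mixed. Of 20 genes of mannose 6-phosphate tagging and sorting, 2 rose and 2 fell in the senescent libraries against the control, near the 15% of all genes called. GNPTAB, the catalytic subunit of the enzyme that makes the tag, had 1463.2 and 1543.6 in the senescent libraries, against 2469.1 in the control (log2 −0.72, adjusted p = 0.0196, limma). SORT1, sortilin, a sorting receptor, had 1219.1 and 1331.4 in the senescent libraries, against 3998.3 in the control (log2 −1.65, adjusted p = 0.0196). The adaptor subunits AP1S1 (log2 1.50, adjusted p = 0.00316) and AP1B1 (0.58, adjusted p = 0.0283) rose, and AP1S1 fell with p53 knockdown (−0.87, adjusted p = 0.0467). Of 20 regulators of MiT-TFE factors and mTORC1, FNIP2 (−1.74, adjusted p = 0.0221) and RHEB (−0.75, adjusted p = 0.0263) fell in the senescent libraries, and RHEB rose with p53 knockdown (0.89, adjusted p = 0.0467). FLCN (−0.92, adjusted p = 0.0324) and FNIP1 (−0.52, adjusted p = 0.0462), which with FNIP2 control the nuclear entry of TFEB, were lower over the RAS groups against the control.

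Of 26 autophagy genes, 1 rose and 2 fell in the senescent libraries against the control, a share under the 15% of all genes. GABARAPL1, an ATG8 family protein of autophagosomes, had 935.3 and 855.6 in the senescent libraries, against 5451.6 in the control (log2 −2.61, SE 0.22, adjusted p = 0.00389, limma). It had 260.2 with p53 knockdown, lower again than senescent (log2 −1.78, adjusted p = 0.0467), and 389.9 to 564.7 with the other knockdowns. ATG9A (−0.65, adjusted p = 0.0309) fell and UVRAG (0.55, adjusted p = 0.0339) rose in the senescent libraries, and ULK1, a kinase that starts autophagy, was lower over the RAS groups (−1.22, adjusted p = 0.0272). With p53 knockdown 24 of the 26 were below 0 (49.8% of all genes), with a median of −0.42 and GABARAPL1 alone called (background 3.84%).

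**Figure D5:**
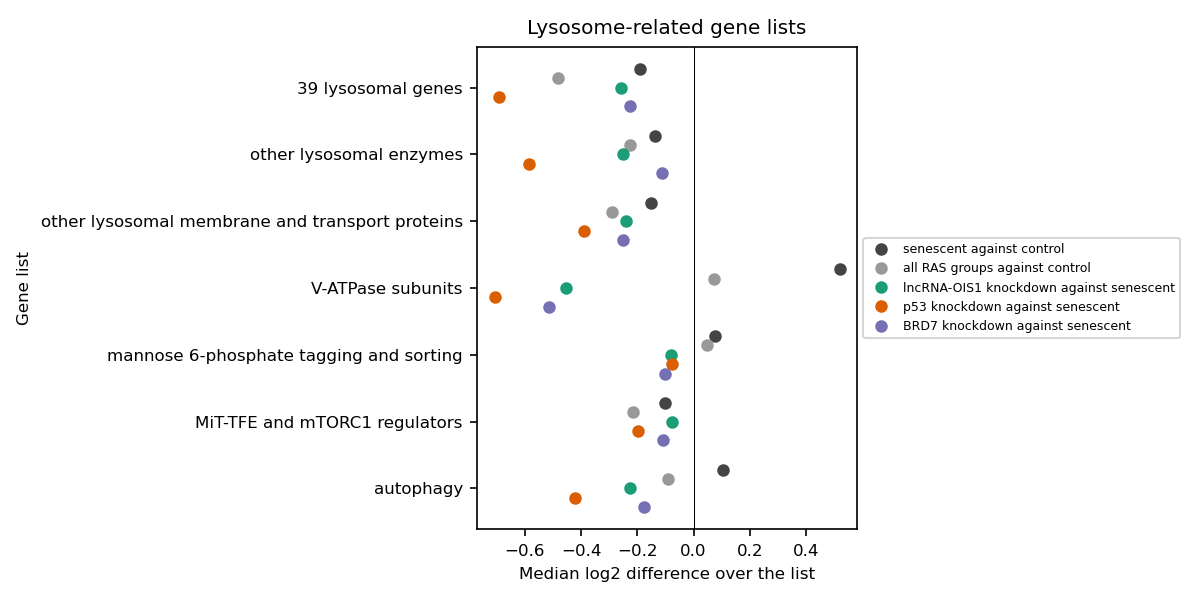
Median log2 difference (horizontal axis) of the 39 lysosomal genes and 6 other lists (rows) in 5 comparisons (colours). With p53 knockdown the medians of the 39 genes and the V-ATPase are −0.69 and −0.71, and the V-ATPase median is 0.52 in senescent against control.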

How the data were processed

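PolyA RNA-seq libraries of BJ fibroblasts (TruSeq RNA kit, per the labels) were analysed from 1 deposited table of normalised read-count signal per gene and library. The submitters' processing notes name TopHat2, HTSeq and hg19 without roles or versions. Quantile normalisation and the floor of 20, at which 1375 of 13745 genes sit in each library, are known only from the name and values of the deposited table. This normalisation removes differences in total RNA, ties values to ranks and hides depth. The sources used here do not state the strandedness of counting.

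Log2 values, with no pseudocount, of 12481 genes with a highest value of at least 40 were fitted with limma 3.58.1 in R 4.3.3: 9 libraries, 5 groups, 4 residual degrees of freedom, variances moderated with a trend, two-sided tests, Benjamini-Hochberg adjustment over all genes. For lone libraries the spread of the replicated groups was assumed. Means and SDs are of linear values. The fit was run on simulated data with the same spread in every library. Such data cannot test whether the lone libraries vary like the replicated groups.

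The genes and lists were chosen with earlier results of these data known. Every library's value is given for called genes, for GLB1, TFEB, LAMP1 and CTSD, and for the largest senescent and lncRNA-OIS1 differences in each class. Up to 4 called genes per other list and comparison were named, by the smallest adjusted p. Genes outside this rule (among them CTSK, PSAP, NPC1, NPC2 and SCARB2) were named after their values were seen. The level of the p53 gene itself and the values of 1 called membrane gene are not reported here. The alternatives comprised a pseudocount (10 or 50), dropping the filter, filtering at a mean of 80, median-of-ratios scaling, no variance trend, robust moderation, only the groups compared, a replicate block and each replicate left out. Leaving out the p53 or BRD7 knockdown library was added after seeing the data.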

Additional observations from a re-analysis of the deposited data

Results flagged for a closer look

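Among the 4 lncRNA-OIS1 libraries, 3 of the 39 genes had 1 library far from the other three, by Dixon's 95% limit on the gap as a share of the range. Among 39 groups tested, chance alone picks about 1 in 20. CTSC had 4030.9 in library 4, against 1649.2 to 1937 in the other three. NEU1 had 1129 in library 3, against 793.4 to 843.8. GLB1 had 1094.2 in library 1, against 1022.8 to 1029.6, a small gap beside very close values.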

How the results depend on the processing

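With the replicate numbers as a block (replicate block) 0 of the 39 genes were called in any comparison. Of all genes, 106 were called for senescent and 477 for all RAS groups against control. For lncRNA-OIS1, p53 and BRD7 knockdown against senescent 0 were called. The block left 1 residual degree of freedom, against 4 without it. Number 1 is held by all 5 groups and number 2 by the senescent and lncRNA-OIS1 groups alone, and in these libraries with the same number correlated at −0.071 and −0.099 in their deviations from the group means, so they were not treated as pairs. Leaving out 1 library gave 0 to 7 called of the 39 for senescent against control (124 to 3704 of all genes), 2 to 16 for all RAS groups (428 to 3468), 0 to 17 for p53 knockdown (0 to 2146), 0 for lncRNA-OIS1 knockdown (0 to 164 of all genes) and 0 for BRD7 knockdown (0 to 8). With only the groups compared, 18 of the 39 and 4998 of all genes were called for senescent against control, 29 and 3428 when p53 knockdown was compared, 0 and 81 when BRD7 knockdown was, on 1 residual degree of freedom. Without a variance trend p53 knockdown had 0 and 2 called, lncRNA-OIS1 knockdown 0 and 1, and BRD7 knockdown 0 and 0. Without a filter lncRNA-OIS1 knockdown had 57 and BRD7 knockdown 30 of all genes called, none of the 39. BRD7 knockdown had 0 called with a pseudocount of 10 or 50. Calls of the 39 in the other settings stayed within 1.5 times. Among the 20 genes given in every library, the differences that changed sign were not called: TFEB with lncRNA-OIS1 knockdown (−0.075 with the replicate block) and FUCA1 for all RAS groups (−0.021 with median-of-ratios scaling). Over libraries left out, the log2 difference ran from −0.382 to 0.135 for CTSH with lncRNA-OIS1 knockdown, from −0.054 to 0.038 for LIPA with BRD7 knockdown, and, for all RAS groups, from −0.181 to 0.581 for FUCA1, −0.374 to 0.005 for ARSA and −0.247 to 0.032 for SGSH. Over all 39, 28 were below 0 for all RAS groups without the p53 knockdown library, against 32 with it. The causes were not tested. Depth is unknown, and the lone control limits each comparison with it.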
